A study of Mus musculus with 5 samples.

Results

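The genes of the proteasome, the protease that degrades ubiquitin-tagged proteins, were examined in mouse tibialis anterior (TA) muscle. Members were taken by name, as every gene in the table whose symbol begins with Psma, Psmb, Psmc, Psmd, Psme, Psmf or Psmg followed by a digit. This rule gave 50 of 17015 genes, and 48 of them were among the 12148 genes that passed the filter for testing, a mean of at least 0.5 FPKM. FPKM is a level in fragments per kilobase of transcript that is scaled between libraries. The rule uses no measured value. The untested members were Psmb11, the catalytic subunit of the thymus form, and the pseudogene Psmb7-ps2. Of the tested members, 47 encode subunits, regulators or assembly chaperones. The other, Psmc3ip, matches the rule only by its symbol and encodes HOP2, a partner of the meiotic recombinases.

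The proteasome has a barrel-shaped 20S core of alpha and beta rings, in which the beta subunits Psmb5, Psmb6 and Psmb7 cut proteins. A 19S cap of ATPases and non-ATPase subunits recognizes ubiquitin, unfolds the substrate and feeds it into the core. Interferon signalling can replace the catalytic subunits with Psmb8, Psmb9 and Psmb10, which forms the immunoproteasome of antigen processing, and the core can also be opened by the activators PA28 and PA200. In skeletal muscle this system removes contractile proteins, and it is known for its part in atrophy.

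The study asked how loss of RIP140, a transcriptional corepressor encoded by Nrip1, acts on muscle endurance. RNA came from TA muscle of sedentary male mice at 8 weeks of age, in 3 libraries labelled WT control and 2 libraries labelled skmNrip1-/-. The library titles give Ctrl and Nrip1KO, and the study's names WT control and skmNrip1-/- stand for these labels here. In skmNrip1-/- mice, Cre driven by the myogenin promoter, crossed in from C57BL/6JN mice, acts on floxed Nrip1 alleles in skeletal muscle cells and leaves the other cells of the muscle untargeted. The labels do not say that each library came from a separate mouse, so the p-values measure the spread between these libraries. The study describes groups of equal size, and only the libraries named here were analysed.

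Nrip1 itself had 4.64, 7.69 and 6.55 FPKM in WT control replicates 1 to 3, and 25.3 and 22.5 FPKM in the libraries labelled skmNrip1-/-. The targeted gene was thus higher in both libraries labelled as knockouts (log2 fold change 1.94 ± 0.21 (SE), limma adjusted p = 0.0261), which goes against the label. The limma adjusted p was 0.146 without WT control replicate 3, and 0.204 and 0.142 without skmNrip1-/- replicate 1 or 2. The table has 1 value per gene, and the coding exon that Cre removes cannot be told apart from the rest of the transcript. The study checked this mouse line by Nrip1 expression and a RIP140 western blot in gastrocnemius and heart. Nrip1 was also compared by RT-qPCR between WT and knockout mice of this line, and that legend names no tissue. TA is not named for either check. All directions below therefore refer to the libraries by their labels. The 10 skeletal muscle markers were present in every library, with a summed level of 81259 to 107277 FPKM in WT control and of 74536 and 76848 FPKM in the libraries labelled skmNrip1-/-. Mitochondrially encoded genes took 45.4% to 50.7% of all FPKM in WT control and 58.6% and 60.9% in the libraries labelled skmNrip1-/-. How many fragments each library held is unknown, so no counting intervals are given.

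No proteasome gene was called different between the groups. A call required an adjusted p of 0.05 or less, from limma on log2(FPKM + 0.1) with Benjamini-Hochberg adjustment over all tested genes, and a fold change of at least 1.2. By this rule 55 of the 12148 tested genes, or 0.453%, were called (0.37% higher and 0.0823% lower in the libraries labelled skmNrip1-/-), and 0 of the 48 members. At an unadjusted p of 0.05 or less, 3 members passed (6.25%), against 11.9% of all tested genes (6.57% higher and 5.33% lower). These were Psmc3ip, higher in the libraries labelled skmNrip1-/-, and Psmd8 and Psme4, lower. The groups did not overlap for 6 members (12.5%), against 30.2% of all tested genes (15.8% higher and 14.4% lower), with 3 members in each direction. The median log2 fold change was -0.02 over the members and 0.00 over all tested genes, and 20 members lay above 0 and 28 below. The median size of the fold change, regardless of sign, was 0.10 on the log2 scale over the members and 0.15 over all tested genes.

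The errors set how large a difference these libraries could have missed. The median standard error of a member's log2 fold change was 0.13, against 0.16 over all tested genes. For 46 of the 48 members (95.8%) the 95% interval lay wholly within a 2-fold difference in either direction, and this held for 86.1% of all tested genes. The exceptions were Psmc3ip and Psme2b. For only 1 member, Psmd1, a scaffold of the 19S cap, did the interval lie within 1.2-fold in either direction (-0.23 to 0.26 on the log2 scale), so differences of 1.2-fold were not detectable for most subunits. All 31 constitutive subunits of the 20S core and the 19S cap had intervals within 2-fold, and their median log2 fold change was -0.04.

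**Figure D1:**
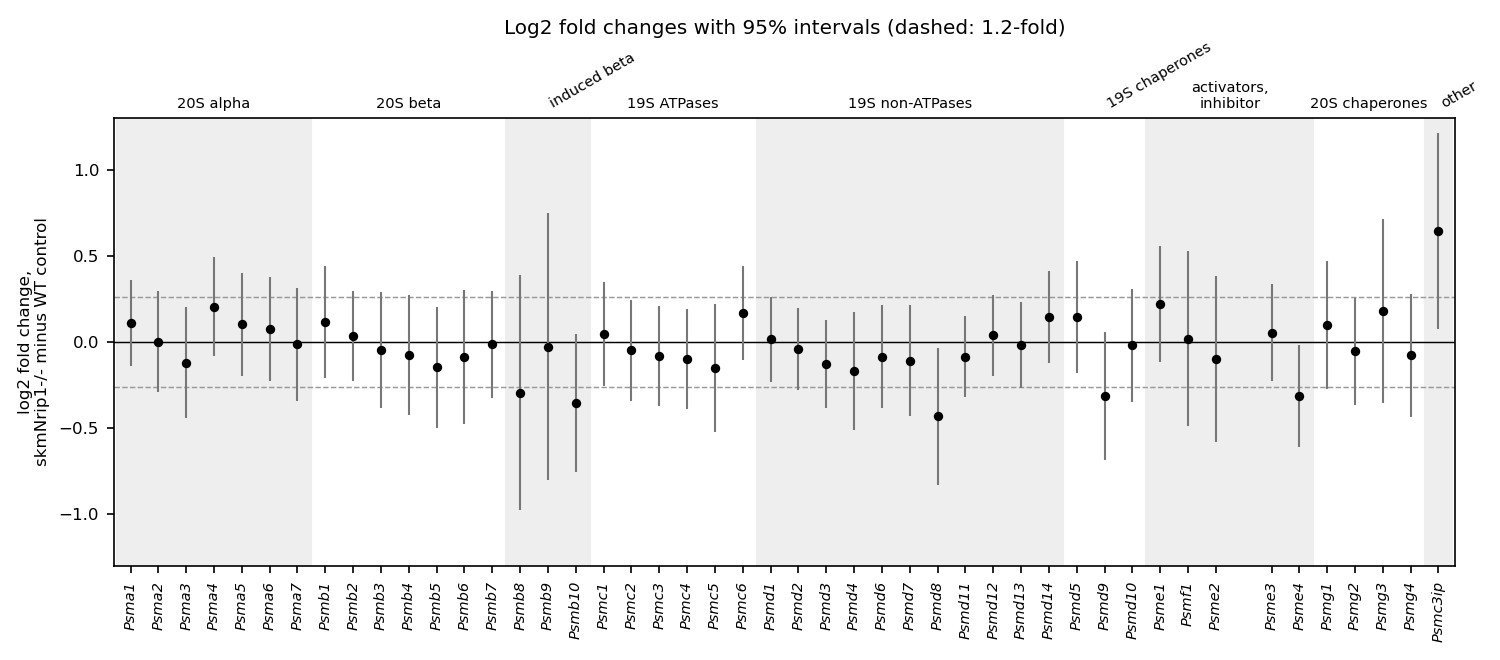
Log2 fold changes (y axis, the libraries labelled skmNrip1-/- minus WT control, on the log2(FPKM + 0.1) scale) of 47 of the 48 tested members (x axis, grouped by particle), as points with 95% intervals from limma; dashed lines mark a 1.2-fold difference, and Psme2b is left out because its interval runs from -1.81 to 3.06. Most points lie between the dashed lines, and the intervals of Psmd8, Psme4 and Psmc3ip are the only ones that do not reach 0.

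Proteasome genes were among the more abundant transcripts of the muscle. The members had a median level of 47.9 FPKM, against 5.92 FPKM for all tested genes, and the median member stood at the 89.2th percentile of mean FPKM. FPKM is a level per transcript length, so subunits can be set beside each other. Although each subunit enters a ring or a cap in a single copy, the levels of subunits in the same ring spanned several fold. In the 20S alpha ring they ran from 23.3 FPKM for Psma2 to 150.6 FPKM for Psma6, a 6.48-fold range. The constitutive beta ring spanned 5.32-fold, from Psmb1 with 39.3 FPKM to Psmb7 with 209.3 FPKM. The 6 ATPases of the 19S base spanned 4.03-fold, from Psmc6 with 47.9 FPKM to Psmc3 with 192.7 FPKM. The other 19S subunits spanned 3.15-fold, from Psmd14, the deubiquitinase of the cap, with 35.1 FPKM to Psmd8 with 110.5 FPKM. Assembly factors were at lower levels, with medians of 9.27 FPKM over the 20S chaperones Psmg1 to Psmg4 and of 3.78 FPKM over the 19S chaperones Psmd5, Psmd9 and Psmd10.

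**Figure D2:**
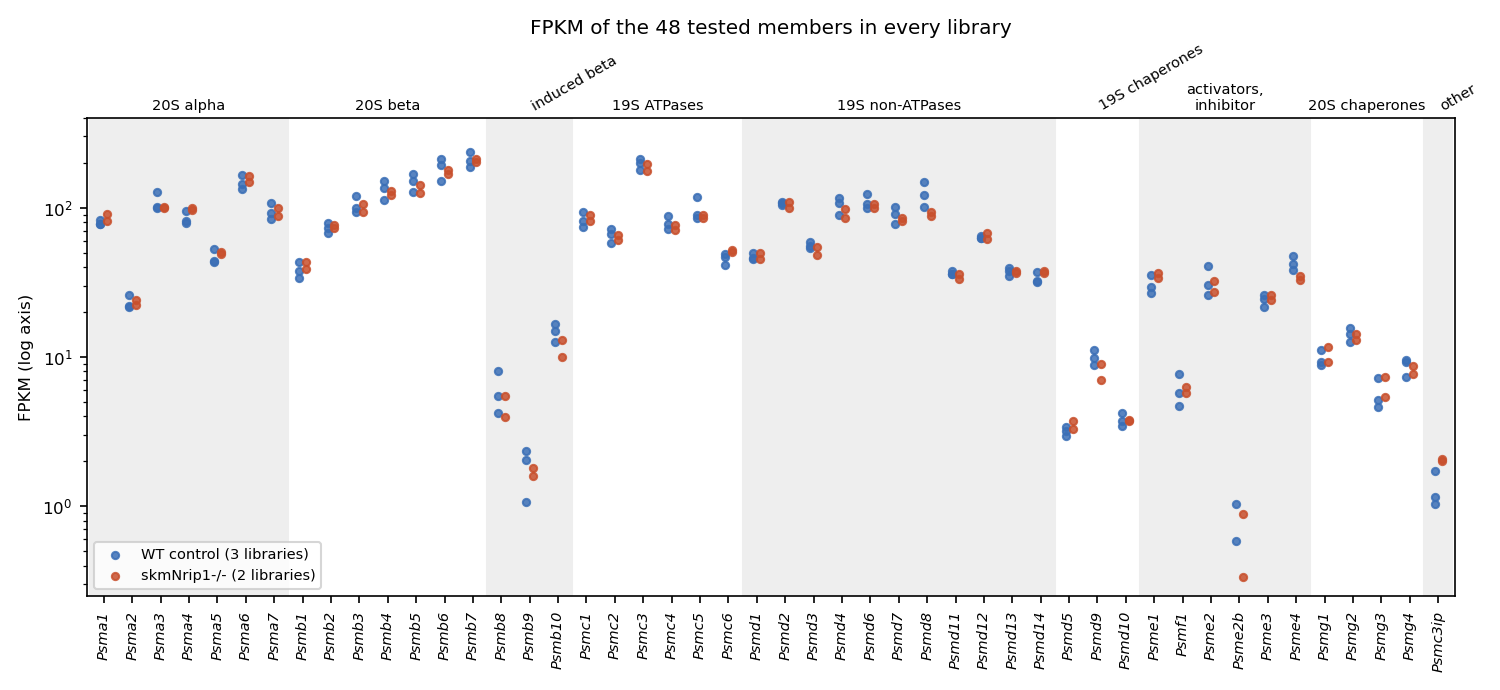
FPKM (y axis, log scale) of the 48 tested members (x axis, grouped by particle) in each of the 3 WT control libraries (blue) and the 2 libraries labelled skmNrip1-/- (orange); Psme2b, listed at 0 in WT control replicate 3, has no point there. Differences between subunits, such as 23.3 FPKM for Psma2 against 150.6 FPKM for Psma6, are far larger than the spread between libraries of either group.

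In the alpha ring, which forms the gate of the 20S core, 5 of 7 subunits lay above 0 and the median log2 fold change was 0.08. The highest value was that of Psma4, with 95.6, 79.0 and 81.2 FPKM in WT control and 100.1 and 95.9 FPKM in the libraries labelled skmNrip1-/-. The groups did not overlap, but the lowest skmNrip1-/- library exceeded WT control replicate 1 by a margin far below the spread within WT control (log2 fold change 0.20 ± 0.12 (SE), limma adjusted p = 0.576). Psma3 had the lowest log2 fold change of the ring, -0.12 (95% interval -0.44 to 0.20), and Psma2 the value nearest to 0, with 0.00 (-0.29 to 0.30). Exons of Psma4 share 114 bases with AY074887 on the opposite strand, a gene at 0.176 to 0.539 FPKM.

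The constitutive beta ring had a median log2 fold change of -0.05, with 5 of 7 subunits below 0. Psmb5, which carries the chymotrypsin-like activity, had 168.4, 127.0 and 151.6 FPKM in WT control and 142.8 and 125.1 FPKM in the libraries labelled skmNrip1-/-. Psmb6, with the caspase-like activity, had 212.5, 150.1 and 194.0 FPKM against 178.1 and 167.3 FPKM. Psmb7, with the trypsin-like activity, had 237.6, 188.4 and 205.4 FPKM against 213.2 and 201.8 FPKM. All 3 catalytic subunits overlapped between the groups, and in each of them WT control replicate 1 was the highest library. Their log2 fold changes were -0.15 for Psmb5 (95% interval -0.50 to 0.20), -0.09 for Psmb6 (-0.48 to 0.30) and -0.01 for Psmb7 (-0.32 to 0.29). Psmb1, a structural beta subunit, had the highest value of the ring, 0.12 (-0.21 to 0.44).

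The 3 induced catalytic subunits of the immunoproteasome were expressed at much lower levels than the subunits they replace. Psmb8, the counterpart of Psmb5, had 8.11, 4.21 and 5.51 FPKM in WT control and 3.94 and 5.51 FPKM in the libraries labelled skmNrip1-/-. Psmb9, the counterpart of Psmb6, had 2.34, 1.07 and 2.03 FPKM against 1.58 and 1.80 FPKM, and Psmb10, the counterpart of Psmb7, had 16.7, 14.99 and 12.6 FPKM against 13.01 and 10.1 FPKM. In all 3 genes WT control replicate 1 was the highest library and the groups overlapped. The log2 fold changes were -0.29 for Psmb8 (95% interval -0.98 to 0.39), -0.03 for Psmb9 (-0.80 to 0.75) and -0.36 for Psmb10 (-0.76 to 0.05), with limma adjusted p-values of 0.758, 0.987 and 0.478. Exons of Psmb9 share 212 bases with Tap1, a peptide transporter gene on the opposite strand, which had 2.37, 1.339 and 1.58 FPKM in WT control and 0.988 and 1.196 FPKM in the other group, without overlap (log2 fold change -0.61, limma adjusted p = 0.440). The summed level of 12 leukocyte markers was 46.2, 55.02 and 64.8 FPKM in WT control and 59.1 and 47.0 FPKM in the libraries labelled skmNrip1-/-, so it overlapped between the groups, and every marker was above 0. Within this list the lymphocyte markers Cd79a and Cd3e were lower in both libraries labelled skmNrip1-/-, at levels below the 0.5 FPKM filter. Cd79a had 0.106, 0.113 and 0.178 FPKM against 0.022 and 0.037 FPKM. Cd3e had 0.090, 0.073 and 0.161 FPKM against 0.055 and 0.046 FPKM. Coro1a, of the same list, was higher in both, with 1.39, 1.06 and 1.37 FPKM against 2.42 and 1.46 FPKM. The part of these markers in the immunoproteasome values was not tested. The 5 blood markers summed to 764, 661 and 511 FPKM against 996 and 827 FPKM. In whole muscle, fewer cells of a type and less RNA per cell cannot be told apart. Psmb11 was at 0.0047 to 0.031 FPKM in the 5 libraries.

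The share of the induced subunits within the catalytic pool does not depend on the scaling between libraries. Psmb8, Psmb9 and Psmb10 together made up 4.20%, 4.17% and 3.53% of the FPKM of all 6 catalytic subunits in WT control (mean 3.97% ± 0.381, SD, n = 3) and 3.35% and 3.39% in the libraries labelled skmNrip1-/- (3.37% ± 0.0298, SD, n = 2). Both of the latter were below every WT control library (exact two-sided permutation test, p = 0.2, Benjamini-Hochberg 0.4 over 4 shares). With 3 libraries against 2 there are 10 splits, and 0.2 is the smallest p that the test can give. Psmb10 took 6.55%, 7.37% and 5.78% of the sum of Psmb10 and Psmb7 in WT control, and 5.75% and 4.74% in the other group (exact two-sided permutation test, p = 0.2, Benjamini-Hochberg 0.4). The lowest WT control library and the highest library labelled skmNrip1-/- were nearly equal in this share. The shares of Psmb8 and Psmb9 within their pairs overlapped between the groups.

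**Figure D3:**
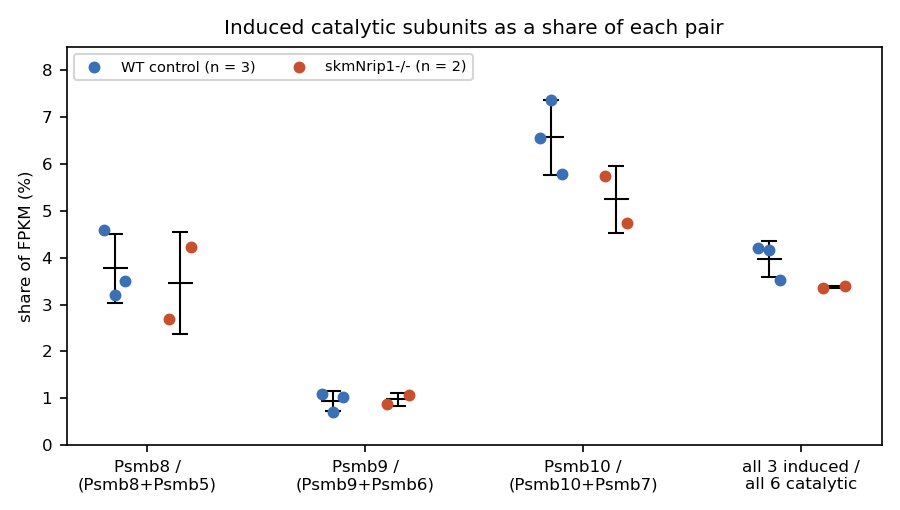
Share of FPKM (y axis, %) taken by each induced catalytic subunit within its pair, and by the 3 induced subunits among all 6 catalytic subunits (x axis), in the WT control libraries (blue) and the libraries labelled skmNrip1-/- (orange); points are libraries, and black bars are the mean and SD. The overall share was 3.53% to 4.20% in WT control and 3.35% and 3.39% in the other group.

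In the 19S cap, the ATPases of the base had a median log2 fold change of -0.06 and the other subunits one of -0.08. Psmd8 (chr7:29174188-29180701, minus strand, GENCODE M21 on GRCm38), a subunit of the lid, had the lowest value of all members, with 148.1, 101.6 and 121.4 FPKM in WT control and 93.7 and 87.6 FPKM in the libraries labelled skmNrip1-/-. The groups did not overlap, and WT control replicate 1 was above the other WT control libraries (log2 fold change -0.43 ± 0.17 (SE), 95% interval -0.83 to -0.03, unadjusted p = 0.0379, limma adjusted p = 0.384). Psmd11, another lid subunit, also did not overlap, with 36.1, 35.8 and 37.9 FPKM against 35.8 and 33.3 FPKM, but its highest skmNrip1-/- library and lowest WT control library were equal to the digits given, and its log2 fold change was -0.08. Psmc6, an ATPase, had 48.8, 47.0 and 41.0 FPKM in WT control and 52.3 and 50.2 FPKM in the other group. Both libraries labelled skmNrip1-/- were higher than all of WT control, by less than the spread within WT control (log2 fold change 0.17 ± 0.11 (SE), limma adjusted p = 0.633). Psmc5 had the lowest log2 fold change of the ATPases, -0.15, and Psmc3, the most abundant of them, had -0.08. Exons of Psmc3 share 215 bases with Slc39a13 on the opposite strand, which had 11.7 to 15.1 FPKM in WT control and 8.99 and 9.10 FPKM in the other group. Psmd14 had the highest value of the non-ATPase subunits, 0.14 (95% interval -0.12 to 0.41).

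Among the activators and the inhibitor of the core, Psme4 stood lowest. Psme4 (chr11:30771726-30880361, plus strand, GRCm38) encodes PA200, a single-chain cap that opens the core without ubiquitin and is known for the degradation of acetylated histones. It had 42.1, 47.3 and 38.03 FPKM in WT control and 32.9 and 35.1 FPKM in the libraries labelled skmNrip1-/-. All of WT control was above both of the other libraries (log2 fold change -0.31 ± 0.12 (SE), 95% interval -0.61 to -0.02, unadjusted p = 0.0397, limma adjusted p = 0.390). The PA28 subunits Psme1 and Psme2 form a mixed ring that promotes antigen processing. Psme1 had 35.3, 26.7 and 29.4 FPKM in WT control and 36.8 and 33.9 FPKM in the other group, and Psme2 had 40.9, 25.8 and 30.1 FPKM against 32.1 and 27.3 FPKM. Both overlapped, with log2 fold changes of 0.22 (95% interval -0.11 to 0.56) for Psme1 and -0.10 (-0.58 to 0.38) for Psme2. Psme3, the nuclear PA28 gamma, had 0.05 (-0.23 to 0.33). Psmf1, the inhibitor PI31, had 7.75, 4.67 and 5.75 FPKM against 6.27 and 5.75 FPKM and a log2 fold change of 0.02. Psme2b, a close copy of Psme2, had a listed value of 0 in 1 library, WT control replicate 3, and 0.338 to 1.04 FPKM in the other libraries, and how the reads were split between the copies is uncertain.

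The assembly chaperones also overlapped between the groups. Psmd9, which escorts ATPases into the 19S base, had 11.1, 8.88 and 9.89 FPKM in WT control and 8.99 and 7.06 FPKM in the libraries labelled skmNrip1-/- (log2 fold change -0.31 ± 0.15 (SE), limma adjusted p = 0.497). Its exons share 1849 bases with the lincRNA Gm26745 on the opposite strand. Psmd5 had 0.14 and Psmd10 -0.02 on the log2 fold change scale. The chaperones of the 20S core ran from -0.08 for Psmg4 to 0.18 for Psmg3, and Psmg2, the most abundant of them, had -0.05.

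Psmc3ip had the largest positive log2 fold change of the members, and Psme2b had 0.63. Psme2b exceeded it with a pseudocount of 0.01 (1.61 against 0.68), with TPM over all genes (0.40 against 0.36) and with TPM over nuclear genes (0.94 against 0.74). Psme2b was also higher without WT control replicate 1 (0.96 against 0.85) or 2 (1.33 against 0.51), and without skmNrip1-/- replicate 1 (1.21 against 0.67). Psmc3ip had 1.73, 1.04 and 1.16 FPKM in WT control and 2.02 and 2.09 FPKM in the libraries labelled skmNrip1-/-. The groups did not overlap (log2 fold change 0.64 ± 0.24 (SE), 95% interval 0.07 to 1.21, unadjusted p = 0.0324, limma adjusted p = 0.363). The gene (chr11:101091823-101095436, minus strand, GRCm38) was at a low level, and 385 bases of its exons are shared with Mlx on the opposite strand, which had 4.95 to 7.06 FPKM in WT control and 6.27 and 6.20 FPKM in the other group. The pseudogene Psmb7-ps2 was at 0.083 to 0.200 FPKM.

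Summed over each particle, the levels overlapped between the groups for 7 of 8 particles. The alpha ring summed to 656, 540 and 563 FPKM in WT control and 628 and 584 FPKM in the libraries labelled skmNrip1-/-, and the constitutive beta ring to 1012, 772 and 896 FPKM against 889 and 822 FPKM. The ATPases summed to 622, 516 and 567 FPKM against 569 and 525 FPKM, and the other 19S subunits to 880, 750 and 797 FPKM against 775 and 717 FPKM. In each of these 4 sets WT control replicate 1 was highest. The induced beta subunits with Psmb11 were the exception, with 27.1, 20.3 and 20.2 FPKM against 18.6 and 17.4 FPKM, a ratio of 0.798 (exact two-sided permutation test, p = 0.2, Benjamini-Hochberg 1 over 8 particles). Over all 50 members, the sums were 3408, 2780 and 3028 FPKM in WT control and 3074 and 2845 FPKM in the libraries labelled skmNrip1-/-. The ratio of the group means was 0.963, whereas the highest WT control library exceeded the lowest by 1.23-fold (exact two-sided permutation test, p = 1).

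The members differed together between WT control libraries. WT control replicate 1 was the highest of the 5 libraries for 29 of 48 members (60.4%), against 27.6% of all tested genes. WT control replicate 2 was the lowest for 21 members (43.8%), against 17.1% of all tested genes. The median deviation of the members from the WT control mean was 0.17, -0.14 and -0.03 on the log2 scale in WT control replicates 1 to 3, and 0.02 and -0.06 in the libraries labelled skmNrip1-/-. Over all tested genes it was within 0.01 of 0 in every library. In the constitutive beta ring, 6 of 7 subunits were highest in WT control replicate 1 and 6 of 7 lowest in WT control replicate 2. The summed skeletal muscle markers were also highest in WT control replicate 1, with 107277 FPKM against 81259 and 85048 FPKM in the other WT control libraries. Myh1 (2736 FPKM against 3987 and 3619 FPKM) and Myh2 (223 FPKM against 333 and 1102 FPKM) were instead lowest in WT control replicate 1. Myh7 was not highest there, and the remaining markers were. The part of these markers in the spread of the members was not tested. Without WT control replicate 1 the median log2 fold change of the members was 0.04, and without WT control replicate 2 it was -0.10.

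**Figure D4:**
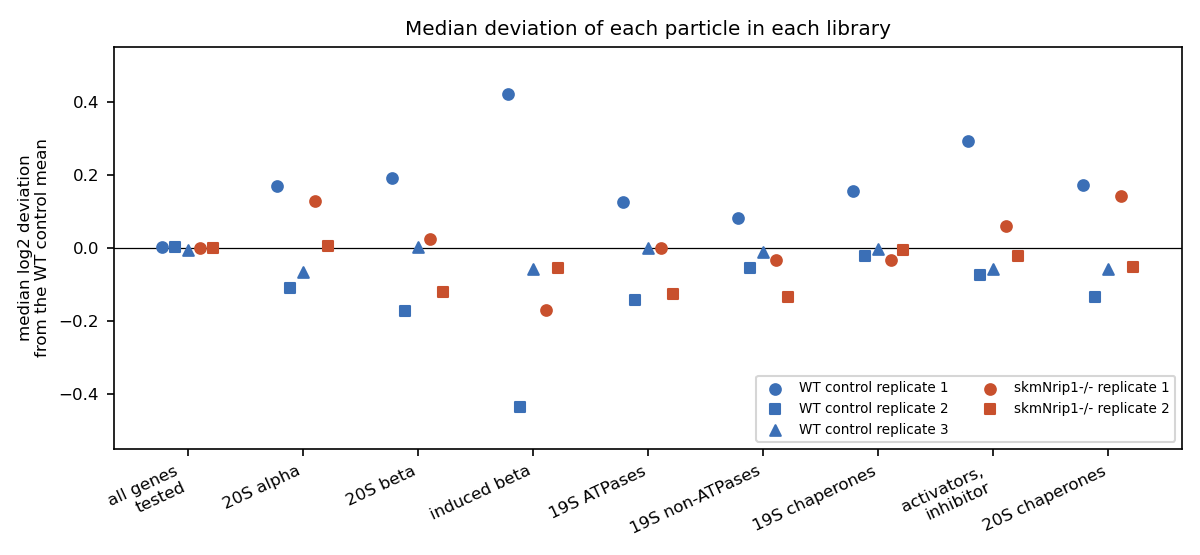
Median log2 deviation from the WT control mean (y axis) of all tested genes and of each particle's tested members (x axis), in each WT control library (blue) and each library labelled skmNrip1-/- (orange). WT control replicates 1 and 2 lie at opposite ends for the constitutive beta ring and the ATPases, with the libraries labelled skmNrip1-/- between them, while all tested genes stay near 0.

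Ratios between members cancel what a library does to all of them, and several were computed after the values were seen, so they are given without a test. The summed 19S subunits were 0.900, 0.964 and 0.935 times the summed constitutive 20S subunits in WT control, and 0.886 and 0.884 times in the libraries labelled skmNrip1-/-. Psma4 made up 14.6%, 14.6% and 14.4% of the alpha ring in WT control and 15.9% and 16.4% in the other group. Psmd8 made up 9.86%, 8.03% and 8.90% of the 19S subunits in WT control and 6.97% and 7.05% in the other group. The ratio of Psme1 to Psme2 was 0.862, 1.03 and 0.974 in WT control and 1.15 and 1.24 in both others. None of these 4 ratios overlapped between the groups, but Psma4 and Psmd8 had been picked for not overlapping, and 30.2% of all tested genes did not overlap either. The summed PA28 subunits Psme1 and Psme2 relative to the constitutive 20S subunits did overlap, with 4.57%, 4.003% and 4.08% in WT control and 4.54% and 4.35% in the other group. Psme4 relative to the constitutive 20S subunits was 2.52%, 3.60% and 2.61% against 2.17% and 2.50%, with the groups adjoining.

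The level of the members as a whole depended on the scaling between libraries. In the deposited values the median gene was level between libraries, and the members took 0.298%, 0.270% and 0.312% of all FPKM in WT control and 0.239% and 0.221% in the libraries labelled skmNrip1-/-. Mitochondrially encoded genes are part of that total. Of the FPKM of nuclear genes, the members took 0.564%, 0.547% and 0.572% in WT control and 0.577% and 0.565% in the other group, and these values overlapped. With every library rescaled to the same total (TPM, which sets the sum over all genes equal between libraries), the median over all tested genes moved to -0.29 on the log2 scale and that of the members to -0.31. At an unadjusted p of 0.05 or less, 24 of 48 members (50%) were then lower and 0 higher, against 29.1% of all tested genes lower. No member was called under this scaling, and the smallest limma adjusted p of a member was 0.0619, for Psmd8. With TPM over nuclear genes alone, the medians were 0.07 over all tested genes and 0.05 over the members. Such rescaling multiplies all genes of a library by the same constant. The distance of the members' median below that of all tested genes, 0.02, was therefore bound to stay nearly unchanged under the 3 scalings.

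**Figure D5:**
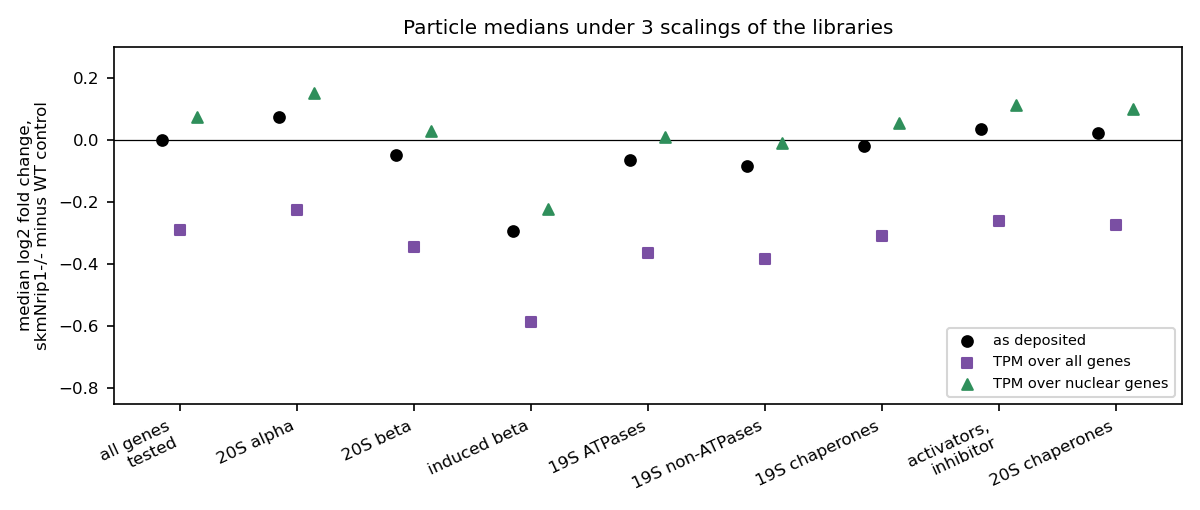
Median log2 fold change (y axis, the libraries labelled skmNrip1-/- minus WT control) of all tested genes and of each particle (x axis), for the values as deposited (circles), for TPM over all genes (squares) and for TPM over nuclear genes (triangles). TPM over all genes moves all tested genes and every particle down together, to -0.29 for all tested genes and -0.22 for the alpha ring.

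Matches to the motifs of 2 kinds of regulator in the promoters of the members are given here. RefSeq windows on GRCm38.p6, from 250 bases before to 50 bases after the transcript start, were at hand for 42 of the 50 members, and both strands were read. The motifs were chosen after the expression values were seen. The core of the antioxidant response element (TGACNNNGC), which NRF1 (Nfe2l1) and NRF2 (Nfe2l2) bind, was found in 6 of 42 members (14.3%), namely Psmb5, Psmb6, Psmc6, Psmd9, Psmd12 and Psme4, and in 13.99% of all 27025 genes with a window. The element of the estrogen-related receptors (TCAAGGTCA), nuclear receptors on which RIP140 acts, was found in 1 member, Psmc3ip, and in 0.466% of all genes. The windows below are shown for the constitutive catalytic subunits with a match, for Psmc6 and for Psmc3ip, 5′ to 3′ on the strand of the gene, with the match in capitals. The windows are at chr14:54618024-54618052 (minus strand) for Psmb5, chr11:70525338-70525356 (plus strand) for Psmb6, chr14:45329587-45329615 (plus strand) for Psmc6 and chr11:101095655-101095683 (minus strand) for Psmc3ip.
Psmb5: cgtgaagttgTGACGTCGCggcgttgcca
Psmb6: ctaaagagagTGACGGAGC
Psmc6: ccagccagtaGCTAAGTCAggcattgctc
Psmc3ip: cgggtttagcTCAAGGTCAcgagtgctca
The match in Psmc6 is on the opposite strand and reads as the reverse complement. These matches describe the letters only. Of the members shown, Psmc6 and Psmc3ip were higher without overlap between the groups, while Psmb5 and Psmb6 overlapped. Of the matched members not shown, Psme4 was lower without overlap, while Psmd9 and Psmd12 overlapped. Over all tested genes 30.2% did not overlap, and a link between matches and levels was not tested.

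Other genes of the ubiquitin-proteasome pathway were taken from 5 lists, and none of their tested members was called. Of 10 partners outside the name rule, 1 was lower at an unadjusted p of 0.05 or less (10%), against 5.33% of all tested genes. This was Akirin2, which guides proteasomes into the nucleus, with 13.9, 12.9 and 13.9 FPKM in WT control and 10.6 and 10.2 FPKM in the libraries labelled skmNrip1-/-. All WT control libraries were above both others (log2 fold change -0.38 ± 0.10 (SE), limma adjusted p = 0.244). Ube3c, a ligase bound to the proteasome, was highest of the list with 0.18. The median of the list was -0.09.

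Of 8 genes listed as regulators of the proteasome or of its genes, 0 passed at an unadjusted p of 0.05 or less. Over all tested genes 11.9% passed. Nfe2l2, the oxidative stress factor NRF2, had 11.9, 15.1 and 12.7 FPKM in WT control and 15.7 and 15.8 FPKM in the other group (log2 fold change 0.26, limma adjusted p = 0.513). Nfe2l1, which drives subunit genes when proteasome activity is low, had 228, 307 and 343 FPKM against 301 and 287 FPKM, and overlapped. The lowest log2 fold change was -0.26, for Zfand2a, a stress-induced proteasome partner.

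Among 13 ubiquitin genes and shuttle factors, the lowest log2 fold change was that of Ubb, a polyubiquitin gene. Ubb had 695, 512 and 570 FPKM in WT control and 497 and 452 FPKM in the libraries labelled skmNrip1-/- (log2 fold change -0.31 ± 0.16 (SE), limma adjusted p = 0.507). Ubb did not overlap between the groups, and the median of the list was -0.02.

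Of 11 ubiquitin ligases known in muscle, Trim63, which encodes the atrophy ligase MuRF1, had 138, 130 and 139 FPKM in WT control and 103 and 99.6 FPKM in the libraries labelled skmNrip1-/-. The groups were well apart (log2 fold change -0.42 ± 0.10 (SE), unadjusted p = 0.00427), but the limma adjusted p was 0.191. Fbxo32, which encodes the other main atrophy ligase, atrogin-1, had 18.97, 20.1 and 19.2 FPKM against 20.6 and 21.5 FPKM, with both libraries labelled skmNrip1-/- above WT control (log2 fold change 0.12, limma adjusted p = 0.722). Fbxo21 had the highest value, 0.30, and the median of the list was 0.12.

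Of 19 tested genes of antigen presentation and interferon response, the setting in which the immunoproteasome works, 2 were lower at an unadjusted p of 0.05 or less (10.5%), against 5.33% of all tested genes, and 16 lay below 0. These were Tap2, a subunit of the peptide transporter (log2 fold change -0.31, limma adjusted p = 0.391), and Stat2, a transcription factor of interferon signalling (-0.42, limma adjusted p = 0.396). Isg15, an interferon-induced ubiquitin-like modifier, was lowest with -0.95 (95% interval -1.98 to 0.09), and Erap1, a peptide trimmer, was highest with 0.33. The median of the list was -0.18.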

How the data were processed

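RNA-seq of TA muscle was analysed from 5 libraries grouped by their labels. Per the submitters' processing notes and the study's methods, the authors quantified reads with Salmon 1.10.2 on mm10, summarized them to genes, tested them with DESeq2 1.44.0, and deposited FPKM per gene and library. How the FPKM were computed is not given in the sources used here. The median ratio of a gene to its geometric mean over the libraries was 1.00171 in all 5 libraries, whereas the summed FPKM differed between them. The authors' deposited log2 fold changes and adjusted p-values were not used. FPKM are not counts, so no count test was run. The read strand setting is not stated, and reads in exons shared by 2 genes may be split wrongly.

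The filter kept genes averaging 0.5 FPKM or more, and limma 3.58.1 was run in R 4.3.3 (eBayes with trend) on log2(FPKM + 0.1), in 1 fit of all 5 libraries, with Benjamini-Hochberg adjustment. Such fold changes understate those of genes with low FPKM. Sums and shares were compared by exact permutation tests. The limma step was tested on simulated data. GENCODE M21 (GRCm38), which holds 16996 of the table's gene IDs, gave exon overlaps. The 54 annotated names that match the rule include 4 not analysed here (Psma8, Psmb5-ps, Psmb6-ps and Psmb6-ps2).

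The members and lists were chosen with earlier results of these data known. Members were named in full where they had an unadjusted p of 0.05 or less or groups that did not overlap, where they were highest or lowest in their particle, and where they were catalytic subunits or PA28 and PA200 genes. In the other lists the highest and lowest member, Fbxo32 and Trim63 were named, and a few results under this rule were left unreported. Nfe2l1, Nfe2l2, Akirin2, Tap2, Stat2, Psmd1, Psmd10 and Psmf1 were named after their values were seen. Other settings tried were pseudocounts of 1 and 0.01, a filter at 1 FPKM and none, TPM over all or nuclear genes, eBayes without trend or robust, a block on the replicate number, and the omission of 1 library at a time.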

Additional observations from a re-analysis of the deposited data

How the results depend on the processing

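No proteasome member was called under any alternative, and the smallest limma adjusted p of a member was 0.0619 (Psmd8, TPM over all genes). Over all tested genes, 45 were called higher and 10 lower in the libraries labelled skmNrip1-/-. These counts were 29 and 59 with TPM over all genes, 22 and 3 with eBayes without trend, and 18 and 4 with the replicate number as a block. Members past an unadjusted p of 0.05 numbered 0 higher and 24 lower with TPM over all genes, 3 higher and 1 lower with TPM over nuclear genes, 0 lower without trend, and 0 higher with the replicate block. The replicate numbers are shared by only 2 pairs of libraries, whose deviations correlated at 0.06 and 0.10, so they do not pair the libraries.

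With TPM over all genes the median log2 fold changes were -0.22 for the alpha ring, -0.35 for the constitutive beta ring, -0.36 for the ATPases, -0.38 for the non-ATPases, -0.31 for the 19S chaperones, -0.26 for the activators and inhibitor and -0.27 for the 20S chaperones. For the partners, regulators, ubiquitin genes, ligases and antigen presentation genes they were -0.38, -0.35, -0.32, -0.18 and -0.48. With TPM over nuclear genes the non-ATPases had -0.0091, and the partners, regulators and ubiquitin genes -0.010, 0.021 and 0.060. The log2 ratio of summed levels turned to -0.25 for the alpha ring and -0.28 for the 20S chaperones with TPM over all genes, and to 0.020 for the constitutive beta ring, 0.024 for the ATPases and 0.021 for the activators with TPM over nuclear genes. The shift of all genes under each scaling is built into its construction.

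Of the 48 members, 28 were below 0, and 46 were with TPM over all genes, 18 with TPM over nuclear genes and 31 with the replicate block. Among the members named in full, Psma2 (-0.30), Psma4 (-0.094), Psma6 (-0.22), Psmb1 (-0.18) and Psmc6 (-0.13) changed sign with TPM over all genes. Psmd14 (-0.15), Psmd5 (-0.15), Psme1 (-0.076), Psme3 (-0.24) and Psmg3 (-0.12) did so too. Psmd1, Psmd12 and Psmf1, which were not named in full, also moved from above 0 to below 0 under this scaling. Members named in full that changed sign with TPM over nuclear genes were Psmb7 (0.061), Psmb9 (0.049) and Psmg2 (0.023). With the replicate block they were Psma2 (-0.045), Psmb9 (0.085) and Psme2b (-0.42). Psmd10, the median 19S chaperone, also changed sign with TPM over nuclear genes (0.056).

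Leaving out 1 library gave 6 to 51 genes called higher and 2 to 15 lower, with 0 members called. The calls were 24 higher and 3 lower without WT control replicate 1, 17 and 2 without WT control replicate 3, 8 higher without skmNrip1-/- replicate 1, and 6 and 3 without skmNrip1-/- replicate 2. Members past an unadjusted p of 0.05 numbered 0 to 3 higher and 0 to 2 lower. There were 3 higher and 1 lower without WT control replicate 1, 0 and 1 without WT control replicate 2, 0 higher without WT control replicate 3 or skmNrip1-/- replicate 1, and 0 of either without skmNrip1-/- replicate 2. List medians ranged from -0.14 to 0.021 for the partners and from -0.041 to 0.053 for the ubiquitin genes. Log2 ratios of summed levels ranged from -0.0089 to 0.14 for the alpha ring, -0.16 to 0.037 for the constitutive beta ring, -0.12 to 0.015 for the ATPases, -0.40 to -0.17 for the induced beta subunits with Psmb11, -0.099 to 0.011 for the activators and inhibitor, and -0.076 to 0.11 for the 20S chaperones. The difference in share ranged from -1.09 to 0.451 percentage points for Psmb8, from -0.0878 to 0.123 for Psmb9, from -1.82 to -0.818 for Psmb10 and from -0.812 to -0.476 for all induced subunits. From 18 (without WT control replicate 1) to 34 (without skmNrip1-/- replicate 1) members were below 0. Among the members named in full, log2 fold changes that changed sign ranged from -0.056 to 0.088 for Psma2 and -0.23 to 0.016 for Psmb6. The ranges were -0.091 to 0.076 for Psmb7, -0.35 to 0.18 for Psmb9, -0.25 to 0.085 for Psme2 and -0.42 to 1.33 for Psme2b. They were -0.018 to 0.11 for Psme3, -0.13 to 0.022 for Psmg2, -0.038 to 0.39 for Psmg3 and -0.19 to 0.010 for Psmg4. Psmd10, the median 19S chaperone, ranged from -0.085 to 0.060. The higher level of Nrip1 kept its direction, from 1.74 to 2.09, with limma adjusted p-values of 0.0769 with eBayes without trend, 0.128 with the block and 0.146, 0.204 and 0.142 without WT control replicate 3 or skmNrip1-/- replicate 1 or 2. The cause of these changes was not tested. The absolute depth is unknown, and 3 libraries against 2 limit the precision.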
